A study of Mus musculus with 4 samples.

Results

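MUNC is a lncRNA whose locus lies upstream of Myod1, the gene of the myogenic regulator MyoD. The genes described here are those on the authors' list of genes adjoining MUNC peaks whose own body holds a peak. They were chosen by position alone: a gene was taken when its RefSeq gene body on the mouse assembly GRCm38.p6 shared at least 1 base with a deposited peak, on the autosomes or X and with a start at or beyond base 3000000. This gave 101 genes of the 408 listed symbols that matched the gene table (24.8%), and of 410 listed symbols in all. The overlap itself chose the genes, so that share is a description. Symbols set aside by name (Myod1, Otog, Ncam2, Klf6, Barhl2, Tfam and Zfp326) removed none, since 0 of these 7 genes held a peak. The 101 genes were all protein-coding, 2 of them listed under an older symbol (Cfap299 as 1700007G11Rik and Tasor as Fam208a).

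The peaks came from chromatin isolation by RNA purification with sequencing (ChIRP-seq) in C2C12, a mouse myoblast cell line in long use. The 4 libraries were 2 with the treatment label MUNC and 2 with lacZ, the negative control, all wild-type and labelled as myotubes in the tissue field and as myoblasts in the source field. The growth protocol names the cells C2C12 PAX7 NEG, kept in 20% FBS and moved to 2% horse serum for differentiation, and the extraction protocol gives 3 days in that medium for the condition it calls DM3. Both groups share this cell line and medium, and the line is 1 established line, not a set of animals. The deposited files were 1 list of 256 peak positions and 1 list of gene symbols for the series as a whole. They hold no height, fold, p-value, depth or value of a single library, so no measurement below has a replicate error, no difference was tested, and the signal with lacZ probes over these genes was not analysed here. Peak positions carry no expression value, so the cell type label was not checked against markers.

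In ChIRP, biotinylated antisense oligonucleotides capture an RNA from crosslinked chromatin, and the DNA that comes along is sequenced. A peak in a gene body therefore marks DNA recovered with the probes and says nothing by itself of whether the gene is transcribed. MUNC is known for promoting muscle differentiation, both near Myod1 and at genes on other chromosomes. Myoblasts differentiate by leaving the cell cycle, switching on muscle genes under the MyoD family, which binds the E-box CANNTG, and fusing into myotubes.

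The promoters shown here are those with the tabulated starts closest to a peak. A table of 32851 RefSeq promoter windows of GRCm38.p6, each reaching from 250 bases before a start to 50 bases after it, held windows for 76 of the 101 genes. None of the peaks in the 101 genes overlapped any of these windows, its own gene's or another's, while 3 of the other 153 peaks did. The windows cover 0.35% of the autosomes and X, and with so small a share nothing is read from the 0. The 4 starts closest to a peak midpoint belonged to Mad1l1 (1030 bases), Yme1l1 (2714 bases), C1qtnf3 (3302 bases) and Zkscan1 (3388 bases), in each case with the peak downstream of the start. Mad1l1 encodes a spindle checkpoint protein that partners MAD2, Yme1l1 a protease of the mitochondrial inner membrane, C1qtnf3 a secreted protein of the C1q and TNF family, and Zkscan1 a zinc finger protein. The 250 bases before each of these starts are printed from RefSeq, 5′ to 3′ on the gene's strand, with every CANNTG in capitals. The Mad1l1 window is chr5:140174919-140175168 on the minus strand, and the Yme1l1 window is chr2:23156255-23156504 on the plus strand; both lie wholly inside the gene body, at a start downstream of its 5′ edge. The C1qtnf3 window is chr15:10952082-10952331 and the Zkscan1 window chr5:138084834-138085083, both on the plus strand and both reaching across the 5′ edge of the gene body.
Mad1l1: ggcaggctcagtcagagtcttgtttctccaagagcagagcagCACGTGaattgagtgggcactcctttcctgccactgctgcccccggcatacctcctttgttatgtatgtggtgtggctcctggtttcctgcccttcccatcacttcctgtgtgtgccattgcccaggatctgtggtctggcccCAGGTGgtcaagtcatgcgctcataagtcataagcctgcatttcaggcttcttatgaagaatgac
Yme1l1: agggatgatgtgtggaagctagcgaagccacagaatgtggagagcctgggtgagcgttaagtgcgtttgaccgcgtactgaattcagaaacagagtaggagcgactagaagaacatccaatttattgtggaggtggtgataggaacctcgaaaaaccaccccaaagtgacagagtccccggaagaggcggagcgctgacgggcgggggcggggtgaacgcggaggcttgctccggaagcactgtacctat
C1qtnf3: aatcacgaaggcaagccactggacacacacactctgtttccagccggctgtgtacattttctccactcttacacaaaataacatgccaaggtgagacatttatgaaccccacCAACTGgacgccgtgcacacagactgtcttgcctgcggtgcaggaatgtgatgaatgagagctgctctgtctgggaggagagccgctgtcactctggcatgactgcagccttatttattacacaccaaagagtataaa
Zkscan1: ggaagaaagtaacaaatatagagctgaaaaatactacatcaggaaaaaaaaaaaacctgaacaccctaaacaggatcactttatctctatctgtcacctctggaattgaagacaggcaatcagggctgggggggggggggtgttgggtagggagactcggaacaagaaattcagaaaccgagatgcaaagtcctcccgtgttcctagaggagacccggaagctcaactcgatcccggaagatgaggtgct

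CANNTG occurred 2 times before the Mad1l1 start (CACGTG and CAGGTG), 1 time before C1qtnf3 (CAACTG) and 0 times before Yme1l1 and Zkscan1. The motif reads the same way on both strands. It was present in 66.2% of all 32851 windows of this length, and in 71 of the 114 windows of the 76 genes (62.3%). The form CAGCTG, which is contained in CANNTG, was in none of the 4 printed windows, in 18 of the 114 windows (15.8%) and in 13.0% of all windows. The Yme1l1 window was the richest in CpG, with 16 CpG and 55.2% GC, and the Mad1l1 window had 3 CpG at 53.6% GC. These matches describe the letters only, and none of the peaks in the 101 genes lay on them.

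The 101 genes held 103 of the 256 peaks (40.2%). Of these genes, 98 held 1 peak and 3 held 2, and 1 peak lay in a pair of overlapping genes, Patl2 and Trim69. Every one of the 103 peaks lay wholly inside its gene. In width they ran from 148 to 1469 bases around a median of 218, with the quartiles at 159 and 329.5. The 153 other peaks ran from 148 to 1200 bases around a median of 244, with the quartiles at 168 and 322. The smallest width in the list, 148 bases, was taken by 15 of the 103 peaks (14.6%) and by 15 of the other 153 (9.8%). At the other end, 11 of the 103 (10.7%) and 12 of the 153 (7.84%) were wider than 500 bases. These sets of widths overlapped over nearly their whole range, and with no height or library value the difference in medians has no error to be read against.

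**Figure D1:**
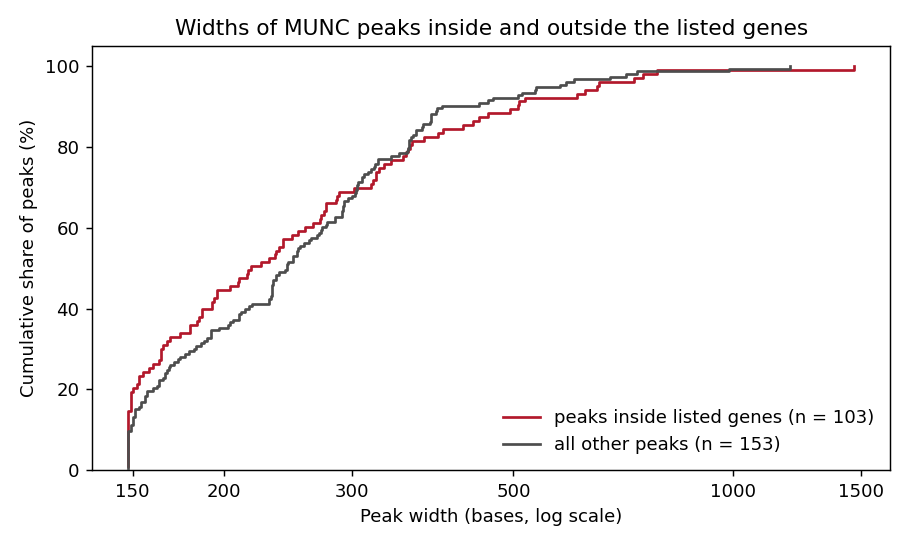
Cumulative share of peaks (%) against peak width (bases, log scale) for the 103 peaks inside the listed genes (red) and the 153 other peaks (grey). Both curves start at 148 bases, the red curve runs above the grey at small widths (medians 218 and 244 bases), and the widest peak, 1469 bases, is inside a listed gene.

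The widest of these peaks lay in Abcc4, an exporter of cyclic nucleotides and drugs of the ABC family (chr14:118546821-118548290, 1469 bases). It stood at 71.2% of the gene's length from the 5′ end, 129376 bases downstream of the nearer tabulated start. A smaller peak of 174 bases lay 311 bases from it on the side of the 5′ end, at 70.7% of the length. Lmf1, which encodes a factor that matures lipoprotein lipase in the endoplasmic reticulum, held the next, of 788 bases, at 60.1% of a gene of 83658 bases (chr17:25629028-25629816). Cfap299, named for cilia and flagella, held one of 753 bases (chr5:98450226-98450979), 121088 bases from the nearer end of the gene.

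Arhgap32, a GTPase-activating protein, held 2 close peaks of 462 and 732 bases with a gap of 570 bases between them (chr9:32130217-32130679 and chr9:32131249-32131981). They lay at 45.2% and 45.7% of the gene, upstream of its nearest tabulated start by 93827 and 92660 bases. The pairs in Abcc4 and Arhgap32 sat closer together than either peak is to any end of its gene, and whether each is 1 region called in pieces was not tested. The peaks of the zinc finger gene Zfp407, of 612 and 193 bases, were far apart, with 151689 bases between them.

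Anks1b, an ankyrin repeat protein of the postsynaptic density, held a peak of 655 bases at 39.3% of a gene of 1100386 bases (chr10:90304776-90305431). Kcnq5, a voltage-gated potassium channel that carries M-type current, held one of 628 bases at 43.7% of its length (chr1:21715819-21716447). Dtwd2, an enzyme that modifies tRNA, had a peak of 651 bases, 20646 bases from the nearer end of a gene of 59507 bases. The oxidoreductase gene Wwox, which spans a common fragile site, had one of 518 bases that lay 31366 bases from the nearer end of 913078 bases (chr8:114471001-114471519).

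The peak of 509 bases at chr2:122168295-122168804 counted for both Patl2, a regulator of translation in oocytes, and Trim69, a TRIM family ubiquitin ligase. These genes lie on opposite strands. The peak was 26.7% into Patl2, 17640 bases from its start, and 42.8% into Trim69, 6994 bases from its nearer start. Rcan1, an inhibitor of the phosphatase calcineurin, held a peak of 508 bases at 10.3% of its length, 7618 bases downstream of a tabulated start (chr16:92458297-92458805). Among the peaks wider than 500 bases with a tabulated start, the Trim69 and Rcan1 distances were the shortest.

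Places along the gene were spread from end to end. For the 76 genes with a known strand, 78 pairs of a gene and a peak could be placed. Their midpoints had a median at 50.7% of the gene's length from the 5′ end, with quartiles of 28.4% and 73.7%. From 0% to 25% there were 15 pairs, from 25% to 50% 24, from 50% to 75% 21 and from 75% to 100% 18. The extremes were Stn1 at 0.353% and Abca8b at 98.5%.

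**Figure D2:**
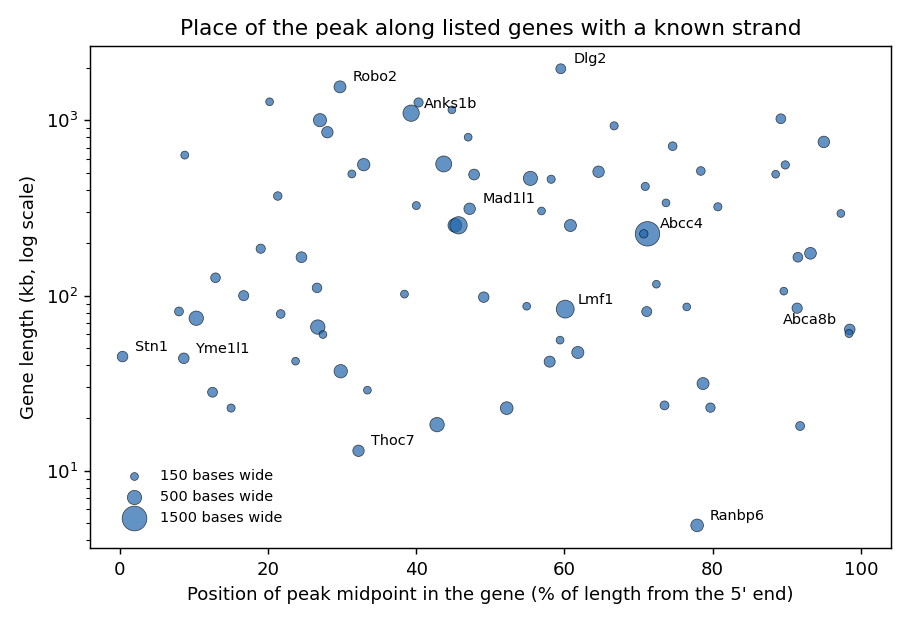
Each circle is 1 of the 78 pairs of a gene and a peak, with the position of the peak midpoint (% of gene length from the 5′ end) on the horizontal axis, gene length (kb, log scale) on the vertical axis and circle area in proportion to peak width. Peaks are spread from Stn1 at 0.353% to Abca8b at 98.5%, in genes from Ranbp6 (4867 bases) to Dlg2 (1973059 bases).

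Ends of the genes were looked at next. Within 1000 bases of either end lay 4 of the 103 peaks (3.88%), within 5000 bases 10 (9.71%) and within 50000 bases 53 (51.5%). These counts depend on the gene lengths and were not set against another placement of the peaks, so they are descriptions. Stn1, a subunit of the CST complex that acts at telomeres, came closest, with a peak of 276 bases that began 19 bases inside the 5′ edge of the gene body (chr19:47545550-47545826). Its 1 tabulated start lay 8569 bases further downstream, so the 5′ edge belongs to a transcript without a window in the promoter table. Abca8b, an ABC transporter of the lipid-exporting A class, had a peak 813 bases from its 3′ end (chr11:109933019-109933295, 276 bases). Wdr19, a subunit of the intraflagellar transport complex A, had one of 160 bases 862 bases from its 3′ end, at chr5:65259393-65259553. Ranbp6, a member of the importin family, had one of 394 bases 877 bases from its 3′ end (chr19:29808985-29809379). Of these 4 peaks, 1 was thus at the 5′ edge and 3 were at the 3′ end.

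Just outside the rule stood Rab31, a Rab GTPase of endosomal traffic, with a peak 54 bases beyond the gene, and Nfxl1, with a peak 205 bases beyond it. The next listed genes outside were Ndfip2 at 1128 bases and Gm6594 at 1291 bases. Of the 307 matched genes with no peak inside, 2 had one within 1000 bases, 14 within 5000 bases and 110 within 100000 bases, and 197 were farther away. The peak in Wdr19 is also the one 2299 bases from Rfc1, which was listed too. The peak in Ranbp6 is likewise the one 2437 bases from the listed gene 9930021J03Rik. The Rab31 peak was 1 of the 3 that overlapped a promoter window.

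Distances to tabulated starts varied widely. Over the 78 pairs the nearest start of the same gene was at a median of 56145.5 bases (quartiles 15040.25 and 159631), the extremes being 1030 and 716568 bases. No peak midpoint was within 1000 bases of a tabulated start of its gene, although that of Stn1 was 157 bases from the 5′ edge of the gene body; 6 were within 5000 bases and 14 within 10000, so 64 of 78 (82.1%) were farther than 10000 bases. After the 4 genes shown above came Thoc7, a subunit of the THO complex of mRNA export (3502 bases), and Ranbp6 (3792 bases). Wars2, the mitochondrial tryptophanyl-tRNA synthetase, followed at 5479 bases. The longest distance was in Dgkb, a diacylglycerol kinase, whose peak of 327 bases lay 716568 bases from the start and at 95.0% of the gene. In 10 pairs the nearest start lay downstream of the peak, as in Dlg2, where it was 412366 bases ahead.

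**Figure D3:**
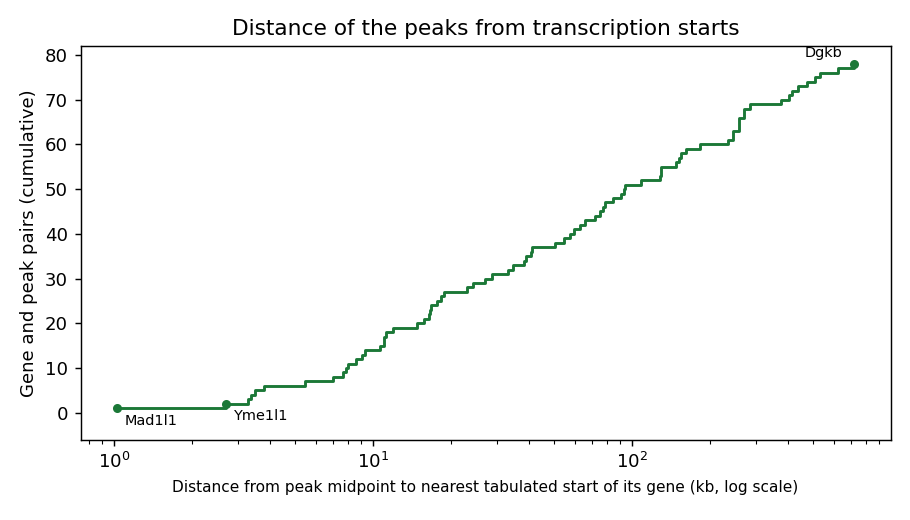
Cumulative number of the 78 pairs of a gene and a peak against the distance from the peak midpoint to the nearest tabulated start of the gene (kb, log scale). The curve begins with Mad1l1 at 1030 bases and Yme1l1 at 2714 bases, passes its middle at 56145.5 bases and ends with Dgkb at 716568 bases.

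The genes were long, and the rule itself favours long genes, since a longer body has more room for a peak. How much of the length comes from the rule was not tested. Their median length was 174911 bases, with quartiles of 62050 and 509347. The other 307 listed genes had a median of 38663 bases and all 21523 protein-coding genes one of 17374 bases. At 300000 bases or longer were 45 of the 101 (44.6%), 29 of the other 307 (9.45%) and 557 of all protein-coding genes (2.59%). The 101 bodies covered 36.9 megabases together.

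The 5 longest were Dlg2, a scaffold of the postsynaptic density (1973059 bases), Robo2, a receptor of Slit guidance cues (1555468), Naaladl2 (1346047), Il1rapl2, an interleukin-1 receptor family protein (1278324), and Agbl4, a carboxypeptidase that trims glutamates from tubulin (1266676). Their peaks were 241, 353, 148, 148 and 209 bases wide, in that order. The Dlg2 peak lay 799097 bases from either end or more (chr7:91649908-91650149), the deepest among the 101 genes. The Robo2 peak was at 29.7% of the gene (chr16:74984872-74985225), and the Naaladl2 peak was 583460 bases from the nearer end (chr3:24560541-24560689). Il1rapl2 had its peak at 20.2% and Agbl4 at 40.3% of the length.

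The 5 shortest were Ranbp6 (4867 bases), Thoc7 (12984), the vomeronasal receptor gene Vmn2r112 (17986), Trim69 (18315) and Stard3, a cholesterol-binding protein of late endosomes (22746). Their peaks were 394, 319, 196, 509 and 400 bases wide. The Ranbp6 peak took up 8.1% of the gene, against 0.0122% in Dlg2. Vmn2r112 belongs to a large family of related receptor genes, and Slc6a20a, with a peak of 302 bases, has the related listed gene Slc6a20b 21820 bases from that peak, so the placing of reads among copies was not tested for either. The Stard3 peak (chr11:98370046-98370446) lay 13365 bases from Tcap, the gene of the sarcomeric protein telethonin, which was on the list without a peak inside. Other listed genes lay closer to such a peak, for example Ecd, 6811 bases from the peak in Nudt13. Tcap is an example, and nothing is read from its role in muscle.

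Set against the whole annotation, 106 of 21523 protein-coding genes (0.492%) held a peak. Below 10000 bases it was 1 of 7676 genes (Ranbp6), from 10000 to 30000 bases 9 of 6365, from 30000 to 100000 bases 29 of 5057 and from 100000 to 300000 bases 19 of 1868. From 300000 to 1000000 bases it was 35 of 498 (7.03%), and at 1000000 bases or longer 13 of 59 (22.0%). Scaled to gene body, those classes had 0.0311, 0.0765, 0.105, 0.0728, 0.15 and 0.164 peaks per megabase. Genes of 300000 bases or longer together had 0.154 peaks per megabase (49 peaks in 319 megabases) and shorter genes 0.0825 (60 peaks in 728 megabases). The autosomes and X as a whole, from base 3000000 to the last gene, had 0.0996. The order is not strictly by length, since the class from 100000 to 300000 bases lies below the class beneath it, and the shortest class rests on 1 peak. How reads map in long and short genes was not tested.

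**Figure D4:**
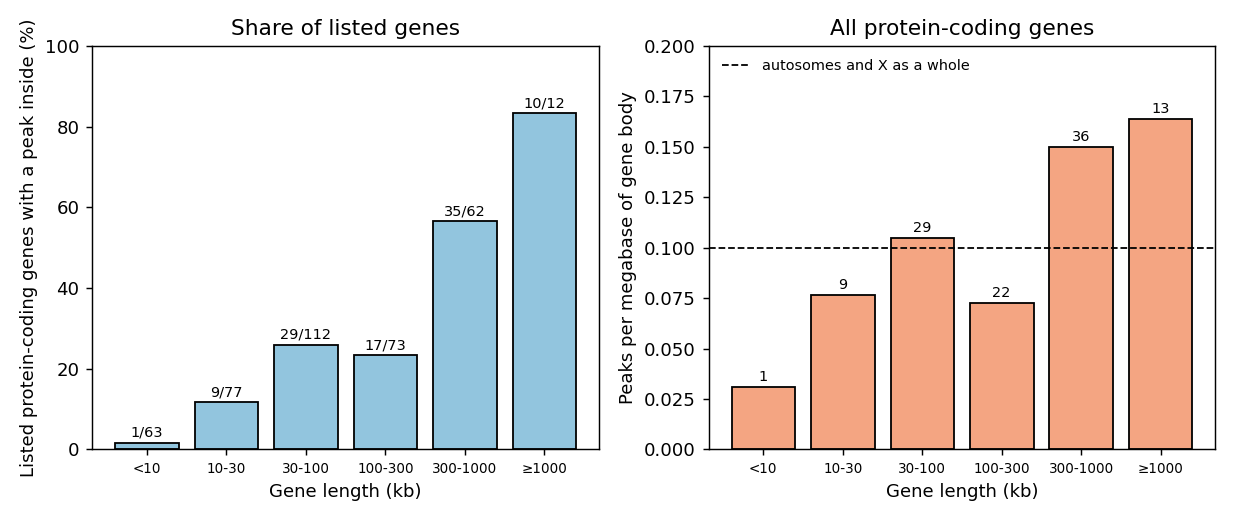
Left, the share of listed protein-coding genes that hold a peak (%), by gene length (kb), with members over listed genes above each bar; right, peaks per megabase of gene body for all protein-coding genes, with the number of peaks above each bar and a dashed line at 0.0996 for the autosomes and X as a whole. On the left the share goes from 1 of 63 in the shortest class to 10 of 12 in the longest, and on the right the 2 longest classes stand at 0.15 and 0.164.

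Almost every protein-coding gene with a peak inside was on the authors' list. Of the 106 genes, 101 were listed and 5 were not, among them Galntl6, Msh3, Pced1b and Dmd. The peaks in these 4 were 190 to 340 bases wide, within the range of the others. Galntl6, a glycosyltransferase-family gene of 1140043 bases, had its peak 1035626 bases from the nearest tabulated start, farther than any pair above. In Dmd, the dystrophin gene of muscle, the peak of 190 bases was 951178 bases from one. Pced1b held 2 peaks, 21606 and 42896 bases from its nearest start. Whether this distance bears on the listing was not tested. The rule that made the list is not given in the sources used here.

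A peak inside a listed gene usually had a single further listed gene near it. Counting bodies within 1000000 bases of the peak, the listed genes numbered 2 for 75 of the 103 peaks, 1 for 12, 3 for 7 and 4 for 9. The same count for the other peaks is not given here, and the list is itself of genes adjoining peaks. The 12 genes listed alone were Naaladl2, Csmd3, Wwox, Celf2, Kcnma1, Abca13, Cfap299, Xkr4, Tox3, Zpld1, Yme1l1 and Fgf9. Altogether 95 listed genes without a peak inside had one of the 103 peaks within that distance. For B3galt1, a galactosyltransferase gene with a peak of 169 bases, the nearest such gene was Xirp2, an actin-binding protein of striated muscle, at 539129 bases. For Rcan1 it was Kcne1, a potassium channel subunit, at 98829 bases. Xirp2 and Kcne1 are examples, and no share of muscle genes among the 95 is given here.

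Further annotated genes overlapped 4 of the peaks, all lncRNA genes and none listed. They were LOC115487471 in Nav3, 4930428E07Rik in Dgkb, Gm34315 in C1qtnf3 and Gm46555 in Rcan1. Gm34315 and Gm46555 lie on the strand opposite to their host genes, and for the others no strand was tabulated. The C1qtnf3 peak, of 241 bases at chr15:10955514-10955755, was at 12.5% of the gene. MicroRNA hairpins lay inside 9 of the 101 genes, 14 hairpins in all, several of them in Clcn5, and the closest was 20328 bases from the peak of its host. Hairpins in other genes were not counted, so these counts have no share to be read against. Whether a peak lies in an exon or an intron was not analysed here.

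By function, the genes were sorted first by groups of symbols. The 10 groups took 42 of the 101 genes (41.6%), 69 of the other 298 listed protein-coding genes (23.2%) and 3832 of all 21523 (17.8%). Length moves with this share. Among genes of 300000 bases or longer, 24 of 45 of the listed genes with a peak inside (53.3%) and 276 of 557 of all protein-coding genes (49.6%) fell in a group. Below that length it was 18 of 56 (32.1%) and 3556 of 20966 (17.0%). None of these shares was tested.

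**Figure D5:**
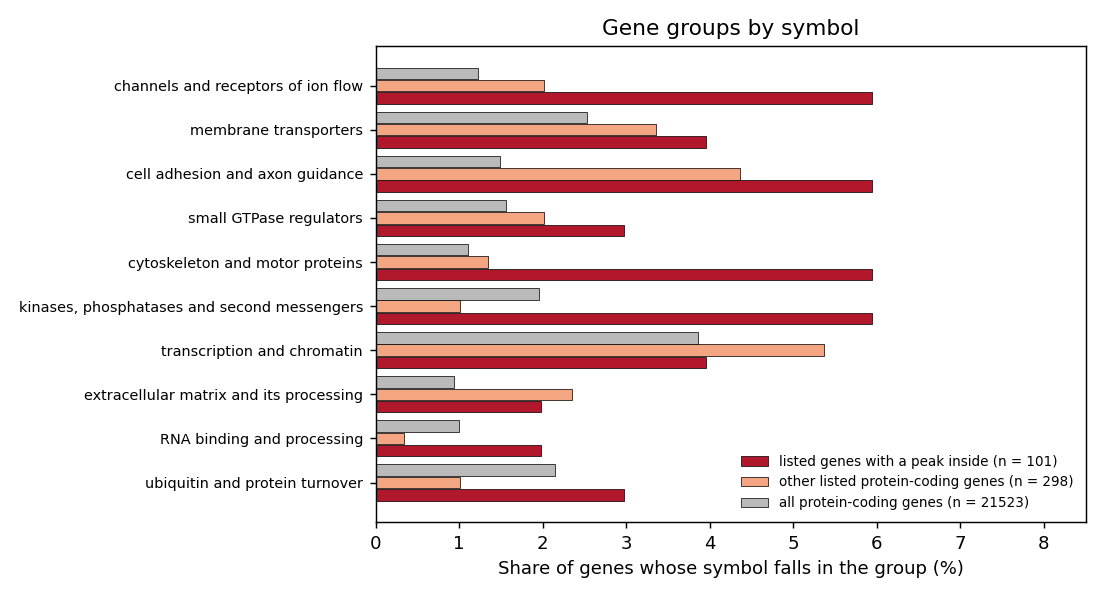
Share of genes (%) whose symbol falls in each of 10 groups, for the 101 listed genes with a peak inside (red), the 298 other listed protein-coding genes (orange) and all 21523 protein-coding genes (grey). The longest red bars, at 5.94%, are 6 genes each, and for transcription and chromatin the red bar (3.96%) is shorter than the orange (5.37%).

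The symbol group of channels and receptors of ion flow held 6 genes (5.94%, against 2.01% of the other listed genes and 1.22% of all protein-coding genes), of which 4 form potassium channels. Kcnma1 encodes the calcium-activated BK channel, Kcnd2 an A-type channel and Kcnh7 a channel of the ERG class, beside Kcnq5. The Kcnma1 and Kcnd2 peaks were both 187 bases wide, at 74.6% and 78.4% of the gene, and the Kcnh7 peak was 288 bases wide, at 47.8%. Kcnma1 is 712823 bases long and had no other listed gene near its peak. Cacna1h, a T-type calcium channel, held a peak of 238 bases and Clcn5, a chloride and proton exchanger of endosomes, one of 285 bases; the latter is in the group by its symbol and is a transporter. Both are shorter genes, of 62050 and 165549 bases.

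Adhesion and guidance genes also numbered 6 (5.94%), where the group took 4.36% of the other listed genes and 1.49% of all protein-coding genes. Besides Robo2 they were Slit2, a ligand of Robo receptors, Cdh12, a cadherin, Cntn4, a contactin, Cntnap5c and the adhesion GPCR gene Adgrg4. Slit2 held a peak of 158 bases at 40.0% of 326445 bases (chr5:48111861-48112019). Slit2 and Robo2 are a ligand and a receptor of the same pathway. Such pairs were not counted among other genes, so nothing is read from this pair. Peaks of this group ranged from 149 to 353 bases, with a median of 162.5. Cdh12 and Cntn4, of 1149544 and 1022510 bases, had peaks of 149 and 236 bases.

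The symbol group of cytoskeleton and motor proteins held 6 as well (5.94%, against 1.34% of the other listed genes and 1.11% of all), with a median peak width of 339.5 bases. Cfap299 and Anks1b, the latter in the group by its symbol and described above as postsynaptic, carried the widest, and the polarity gene Pard3b one of 426 bases at 27.0% of 1003618 bases. Wipf1, which binds WASP and promotes actin assembly, had a peak of 253 bases 16668 bases from a start, Nav3 one of 180 bases and Macf1, a linker of microtubules and actin, one of 148 bases. The GTPase regulators were 3 (2.97%, against 2.01% and 1.56%). Besides Arhgap32 they were Arhgap6, with a peak of 324 bases 11052 bases from a start, and Vav2, a guanine nucleotide exchange factor, with one of 235 bases at 91.5% of the gene.

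Signalling genes of the kinase and second-messenger group were 6 (5.94%, against 1.01% of the other listed genes and 1.96% of all). Wnt2, a secreted ligand, held a peak of 360 bases at 61.8% of the gene, and Fgf9, a fibroblast growth factor, one of 148 bases 7977 bases from its start. Mapk10, which encodes the kinase JNK3, held a peak of 148 bases, the cyclic nucleotide phosphodiesterase Pde10a one of 164 and the phosphatase Ptpn4 one of 210, beside Dgkb. Outside the symbol groups, and sorted by role after the members were known, 6 more genes act in signalling; sets sorted this way have no share among other genes to be read against. Met, the receptor of hepatocyte growth factor, had a peak of 225 bases at 26.6% of its length (chr6:17492687-17492912). Gab1, a docking adaptor that Met uses, had one of 148 bases at 72.4%. The others of the 6 were Rcan1, Il15ra, the interleukin-15 receptor chain, with 148 bases, the myosin light chain kinase gene Mylk4 with 148 bases at 89.6%, and Cdkl2 with 440 bases.

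Transcription and chromatin genes were 4 (3.96%, near the 3.86% of all protein-coding genes and below the 5.37% of the other listed genes): Zfp407, the Krüppel-like factor Klf12 (165 bases), Prdm16, a determinant of brown fat against muscle fate (164 bases at 80.7% of the gene), and the chromatin remodeller Chd2 (148 bases). DNA-binding and silencing genes outside that pattern were 6, with peaks of 148 to 276 bases, among them Tasor, a subunit of the HUSH silencing complex (148 bases), Mbd5 (180 bases), Camta1 (149 bases), Tox3 (152 bases), Zkscan1 (163 bases) and Stn1. The 2 RNA-binding genes (1.98%, against 0.336% and 0.999%) were Celf2, a splicing regulator, with a peak of 321 bases, and Pum2, a translational repressor, with one of 185 bases. Genes of mRNA export, translation and tRNA outside that pattern were 4, Lars, Patl2, Thoc7 and Dtwd2, with peaks of 272 to 651 bases.

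Transporters were 4 (3.96%, near the 3.36% of the other listed genes and the 2.53% of all), with Abca13 (149 bases) beside Abcc4, Abca8b and Slc6a20a. The symbol group of ubiquitin and protein turnover held 3 (2.97%, against 1.01% and 2.15%), Fbxo7 with a peak of 356 bases, Rnf17 with 204 and Trim69. They are in it by symbol. The 2 matrix genes (1.98%, against 2.35% and 0.939%) were Adamtsl1 (193 bases) and the collagen gene Col23a1 (148 bases at 97.3% of the gene). Synaptic scaffold, release or adhesion genes outside the patterns were 5, all of 486087 bases or longer: Dlg2, Grip1, Lrrc7, Rims2 and Il1rapl2, with peaks of 148 to 265 bases. Genes of mitochondrial proteins were 3, Immp2l, Yme1l1 and Wars2, with peaks of 164 to 275 bases. Lipid, GPI anchor and glycan enzymes were 5: Lmf1, Pgap1, Stard3, B3galt1 and Csgalnact1. Genes of vesicle traffic, cilia and membrane shaping were 7: Lrba, Sytl5, Efr3a, Wdr19, Fnbp1l, Agbl4 and Dmxl1, with peaks of 148 to 449 bases.

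The remaining 23 genes were not sorted. They were Bcl2l15, C1qtnf3, Ccdc178, Csmd3, Efcab5, Gm884, Gnl3l, Lzts1, Mad1l1, Malrd1, Naaladl2, Nudt13, Plxdc2, Ranbp6, Soga3, Spats2l, St13, Tmcc1, Tmem117, Vmn2r112, Wwox, Xkr4 and Zpld1. Their peaks ranged from 148 to 518 bases and their lengths from 4867 to 1346047 bases. Of a list of 50 myogenic genes, 0 were among the 101, and 1 was on the authors' list, Myod1, which holds no peak in its body. Dmd, also among the 50, held a peak of 190 bases but was not on the authors' list. With 0.492% of all protein-coding genes holding a peak, a list of 50 is too short for that 0 to say anything of the members. Nothing is read from the Dmd peak either.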

How the data were processed

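The values used were genome positions and gene symbols. Per the submitters' processing notes the tools were Bowtie2 2.3.4.1 and MACS2 2.1.1.20160309 and the genome build was mm10, which is GRCm38. The peak threshold, the use of the lacZ libraries, the pooling of replicates, the sequencing depth and the rule joining genes to peaks are not given in the sources used here. Positions are as the authors deposited them, starts were taken as counted from 1, and width is end minus start.

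Symbols were matched to a RefSeq table of GRCm38.p6 (49214 genes after 783 entries were left out, 21523 protein-coding) by current symbol (396) or by an older symbol of 1 gene only (12), and 2 were unmatched. Strand and starts came from the promoter table. The overlap procedure was tested on simulated peaks. Computation used Python 3.11.15 and figures matplotlib 3.10.9. Genes described with positions were those of the 10 widest peaks, those with 2 peaks or a peak within 1000 bases of an end, the 5 longest and 5 shortest, and any on the myogenic list; others were added by role or promoter after their values were seen. The members and lists were chosen with earlier results of these data known.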

Additional observations from a re-analysis of the deposited data

How the results depend on the processing

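Across 7 results, 19 alternatives were computed and 16 left the value within a tolerance: 1.5 times for counts, and otherwise a 95% counting interval over peaks or genes (193 to 259 bases for the median width), which is no replicate error and tests nothing. The number of listed genes with a peak inside, 101, became 47 with peaks wider than the median of all peaks only, which leaves fewer peaks by construction. Its other alternatives gave 86 (without peaks of the smallest width) to 113 (gene body extended by 5000 bases). Peaks near an end of their gene, 10 within 5000 bases, numbered 4 within 1000 bases and 53 within 50000 bases, as the window sets. Chosen after seeing the data were the distance to tabulated starts with its alternative, the median width without the genes that hold 2 peaks, and the length classes with the alternatives on them. Genes of 300000 bases or longer held 0.1379 peaks per megabase without the smallest peaks, against 0.0687 in shorter genes, and with the boundary at 500000 bases the values were 0.1503 and 0.0937. No paired analysis was possible because neither file gives values by library, so no replicate could be left out either. Exon overlap and GC content of the peaks were not run. Without depth or height, weaker sites missing from the list could not be estimated.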
